A study of Mus musculus with 8 samples.

Results

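The genes described here are 34 genes of major histocompatibility complex (MHC) class I and class II antigen presentation, taken by gene symbol from the 55291 genes counted in the lumbar spinal cord of SOD1 G93A mice. The list was set by gene name and not by a rule on measured values, though earlier results of these data were known when it was chosen. All 34 genes passed the filter on low counts that left 19470 genes for testing. It holds 10 class I heavy and light chains, 9 class II chains and accessory chains, 2 transactivators, 3 genes of peptide transport and trimming, 5 of peptide loading, and 5 of the immunoproteasome and its activator. Of these, 22 lie on chromosome 17, the chromosome of Ager, and 12 lie on other chromosomes.

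RNA from whole lumbar spinal cord was sequenced from 8 male mice, all of which carried the human SOD1 G93A transgene, a model of amyotrophic lateral sclerosis, and 1 Cre allele at Cx3cr1. In 4 mice (E1776, E5231, E5248 and E5568, the Ager-deleted mice) both Ager alleles were floxed (Agerfl/fl Cx3cr1Cre/+), and in 4 (E5386, E5642, E6578 and E6732, the Cre-expressing controls) both were wild type (Ager+/+ Cx3cr1Cre/+). All 8 received tamoxifen, 0.2 µg per dose by the labels, at 12 weeks, and the labels give an age of 120 days, whereas the study's text describes end-stage tissue. The question was whether loss of Ager, which encodes the multiligand receptor RAGE, from microglia altered the transcriptome of the diseased cord. The tamoxifen-dependent Cre is driven from Cx3cr1, which is active in microglia and other myeloid cells, it takes the place of 1 Cx3cr1 copy in both genotypes, and the sequenced RNA came from all cells of the cord.

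Class I molecules are carried by most nucleated cells and pair a polymorphic heavy chain with beta-2 microglobulin; they are loaded in the endoplasmic reticulum with peptides cut by the proteasome and pumped in by the TAP transporter. Class II molecules are made chiefly by professional antigen presenting cells, travel with the invariant chain CD74, and exchange its fragment for endosomal peptides with the help of H2-DM. Both sets are induced by interferons, class I genes through NLRC5 and class II genes through CIITA, and in the central nervous system microglia, macrophages at its borders and infiltrating lymphocytes are known sources.

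Upstream sequences are shown for 5 genes because class I and class II promoters are known to share a set of regulatory boxes. RefSeq start sites on GRCm38.p6 were matched by symbol for 27 of the 34 genes; the genes with no entry were H2-T24, Nlrc5, Tapbpl, Tap2, Ciita, Cd74 and H2-Ab1. Each stretch below is the 170 bases before the start site, written 5′ to 3′ on the gene's strand and capitals mark matches, on either strand, to the short motifs spelled out after them.
H2-K1, chr17:34000348-34000517, minus strand: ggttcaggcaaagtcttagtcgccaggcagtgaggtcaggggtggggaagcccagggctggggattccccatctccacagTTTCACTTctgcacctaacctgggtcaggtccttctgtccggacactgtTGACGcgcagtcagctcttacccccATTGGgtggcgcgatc
H2-Q4, chr17:35379447-35379616, plus strand: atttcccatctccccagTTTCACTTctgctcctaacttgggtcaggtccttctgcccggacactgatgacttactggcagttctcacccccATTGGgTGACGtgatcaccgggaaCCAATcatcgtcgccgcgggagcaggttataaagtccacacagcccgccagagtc
B2m, chr2:122147517-122147686, plus strand: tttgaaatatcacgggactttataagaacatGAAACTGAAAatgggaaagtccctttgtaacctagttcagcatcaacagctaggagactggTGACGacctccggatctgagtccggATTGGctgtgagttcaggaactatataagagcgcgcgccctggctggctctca
H2-Aa, chr17:34287824-34287993, minus strand: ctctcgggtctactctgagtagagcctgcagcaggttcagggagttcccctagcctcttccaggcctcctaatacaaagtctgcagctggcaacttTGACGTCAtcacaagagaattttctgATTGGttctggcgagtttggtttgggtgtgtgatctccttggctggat
H2-Eb1, chr17:34305697-34305866, plus strand: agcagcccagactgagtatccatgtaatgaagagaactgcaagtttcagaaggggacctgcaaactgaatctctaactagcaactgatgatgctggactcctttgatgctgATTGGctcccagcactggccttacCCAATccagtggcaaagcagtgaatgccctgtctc
Over the 250 bases before the start, ATTGG, the core of the Y box bound by NF-Y, was found for 22 of the 27 genes and in 33.9% of all 32851 promoter windows. TGACG, the core of the X2 box bound by CREB-type factors, was found for 13 of the 27 and in 17.8% of all windows. The X2 core followed by the Y core with 10 to 40 bases between them, read along the gene's strand, was found for 6 of the 27 (B2m, H2-Aa, H2-D1, H2-K1, H2-M3 and H2-Q7) and in 0.408% of all windows. TTTCACTT, a core of the interferon-stimulated response element, was found for 7 of the 27 (H2-D1, H2-K1, H2-M3, H2-Q4, H2-Q6, H2-Q7 and H2-T22) and in 1.36% of all windows. Another form of such an element, a pair of GAAA with 2 bases of any kind between, was found for 3 (B2m, H2-T22 and H2-T23) and in 2.98% of all windows. These are letter matches only, and members of the H2-K, H2-D and H2-Q families have related promoters. Counts for the 27 are per gene and the shares over all are per window, so they are not in the same unit.

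Total counts on genes ran from 31148047 to 40324897 per mouse, so that 3 counts correspond to at most 0.0963 CPM (counts scaled to a common library total, after TMM normalization). Values per mouse are given below in the order E1776, E5231, E5248 and E5568 for Ager-deleted mice, then E5386, E5642, E6578 and E6732 for controls. Ager itself, at chr17:34597862-34600936, measured 0.889, 1.51, 1.02 and 1.34 CPM after deletion, against 1.53, 2.22, 2.18 and 2.41 CPM in controls. Every Ager-deleted mouse was below every control, with a log2 fold change of -0.81 ± 0.21 (SE). The adjusted p of Ager was 0.252 by the edgeR exact test and 0.705 by the quasi-likelihood test. Without control E5386 the exact test gave an adjusted p of 0.0442. Without both E5386 and E5642 it gave 0.157, and every other alternative, including each other mouse left out, gave a higher value. An exact permutation test of the 8 mice gave p = 0.0286, the smallest that 4 against 4 allow. Controls E5386 and E5642 stood apart by skeletal muscle genes (15 listed, 14 tested). Summed over all 15, these were at 1101 and 1691 CPM against 64.9 to 92.2 CPM in the other 6 mice. Acta1 was at 241 and 377 CPM against 1.27 to 5.81 in the other 6 mice. Control E6732 stood apart by liver genes, with Alb at 452 CPM against 0.0618 to 0.762 in the other 7. The cord's own markers were present in all 8 mice, with Snap25 between 1160 and 1783 CPM, Mbp between 11048 and 13683 CPM and the microglial gene Tmem119 between 22.4 and 45.8 CPM. In such bulk RNA, a change in the number of cells of a type and a change in RNA per cell cannot be told apart.

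None of the 34 genes passed the test between Ager-deleted mice and controls. By the edgeR exact test adjusted over all 19470 genes, 0 of the 34 were called, where 14 of all tested genes (0.0719%) were, and by the quasi-likelihood test 0 of 34 were called, where 1 (0.00514%) was. At an unadjusted p under 0.05, the exact test held 0 of the 34 (4.26% of all genes) and the quasi-likelihood test held 1, Calr (6.71% of all genes). DESeq2, and the exact test on common plus tagwise dispersions, also called 0 of the 34. In 0 of the 34 did the mice of the 2 genotypes fall into ranges that do not overlap, where 754 of all genes (3.87%) did. The fold changes were split evenly, 17 higher and 17 lower in Ager-deleted mice, with a median of -0.0019 on the log2 scale beside 0.0069 over all tested genes. They ran from -0.21 for H2-DMb2 to 0.20 for Calr. The 95% intervals were not equally narrow. That of Pdia3 ran from -0.14 to 0.14 and that of H2-Q6 from -0.95 to 0.66. A difference of 1.5 times either way in H2-Q6 lies within its interval, so these mice do not exclude it.

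**Figure D1:**
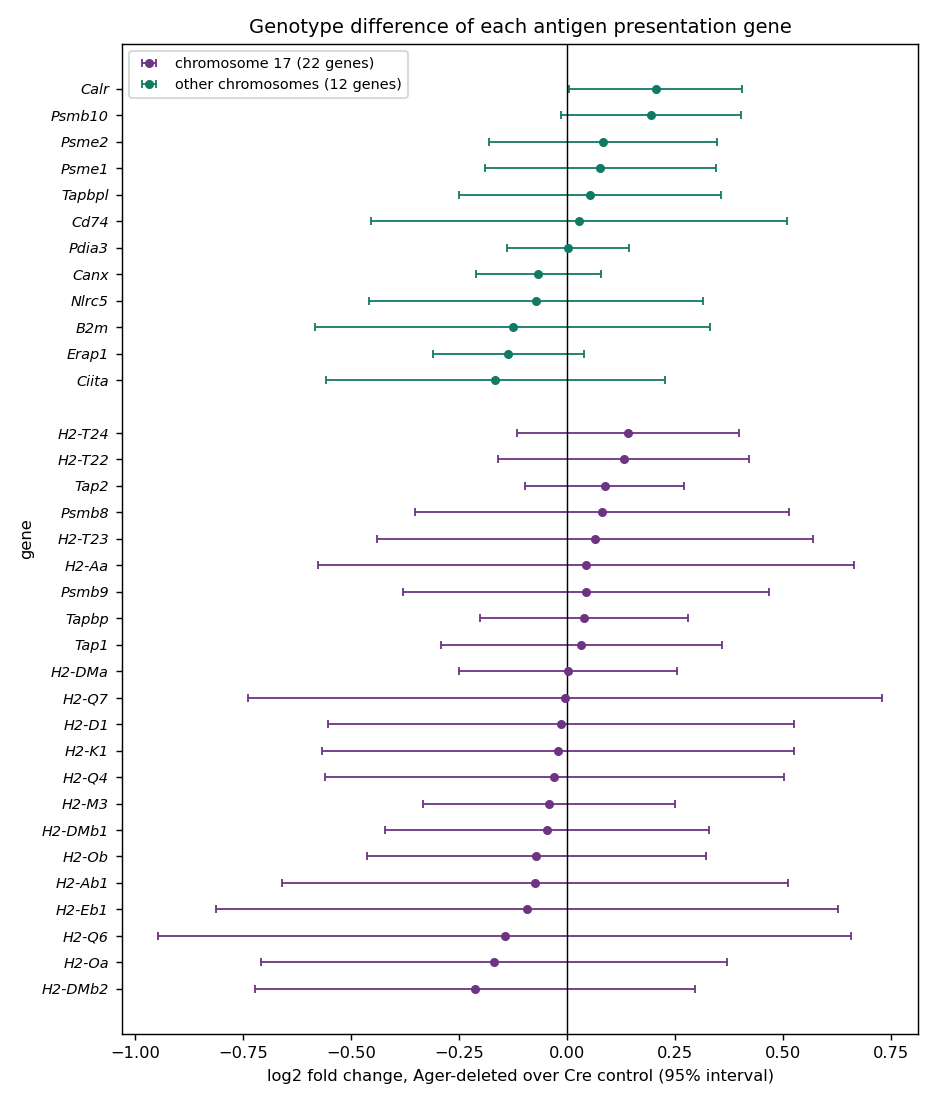
Log2 fold change of each gene, Ager-deleted over Cre-expressing control, with its 95% interval from the quasi-likelihood fit, for the 22 genes on chromosome 17 (purple) and the 12 elsewhere (green). The intervals of all genes but Calr span 0, and those of several class I and class II genes on chromosome 17 are the widest.

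Per length of exon, the light chain was the most abundant transcript. The level of B2m was 2070 ± 493 TPM (counts per exon length, scaled to a common total; SD, n = 8 mice), above that of every other gene of the list in all 8 mice. The classical heavy chains H2-D1 (554 ± 161 TPM) and H2-K1 (252 ± 75.8 TPM) and the chaperones Calr (454 ± 82.3 TPM), Canx (341 ± 33.3 TPM) and Pdia3 (322 ± 33.4 TPM) came next, with ranges over mice that overlap between neighbours in this order. The invariant chain Cd74 stood at 107 ± 28.1 TPM, and the class II chains proper were lower, with H2-Eb1 at 18.7 ± 6.90 TPM, H2-Ab1 at 17.7 ± 5.61 TPM and H2-Aa at 15.5 ± 5.07 TPM, 3 levels whose ranges overlap. The lowest was Ciita, the class II transactivator, at 0.888 ± 0.186 TPM. Of the 33 pairs of neighbours in the order, 10 kept it in all 8 mice and 3 had ranges that do not overlap: B2m over H2-D1, H2-K1 over Cd74, and H2-DMb2 over Ciita. Within a mouse, B2m was 2.53 ± 0.192 times the sum of H2-K1 and H2-D1 in Ager-deleted mice and 2.67 ± 0.0522 times in controls (TPM; SD, n = 4 each).

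**Figure D2:**
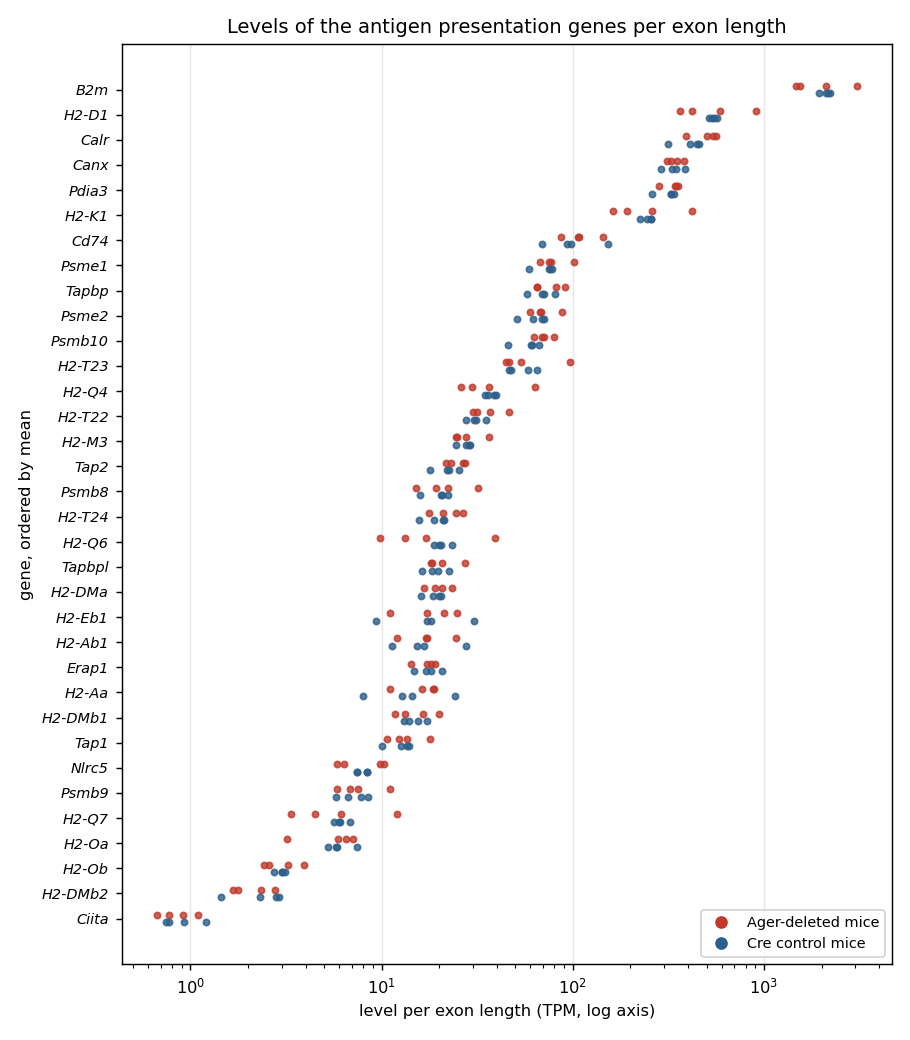
Level of each gene per exon length in every mouse, on a log axis in TPM, with Ager-deleted mice in red and Cre-expressing controls in blue. The levels span from 0.666 TPM for Ciita to 3077 TPM for B2m, and the red points of class I genes are spread more widely than the blue ones.

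The class I chains showed their differences within the Ager-deleted group. B2m (chr2:122147686-122153083) was at 463, 705, 316 and 378 CPM after Ager deletion, against 500, 549, 515 and 468 CPM in the 4 controls. The controls sat close together inside the range of the Ager-deleted mice, of which E5231 was the highest and E5248 the lowest of all 8. The log2 fold change was -0.13 ± 0.21 (SE). H2-K1 (chr17:33996017-34000347), a classical heavy chain, was at 196, 327, 119 and 160 CPM after Ager deletion, against 194, 220, 204 and 196 CPM in controls. H2-D1 (chr17:35262730-35267499), the other classical heavy chain of this haplotype, was at 390, 623, 236 and 307 CPM after Ager deletion, against 380, 440, 396 and 356 CPM in controls. Both showed the same arrangement of mice as B2m, with group means that nearly coincide: 200 ± 89.9 against 203 ± 11.8 CPM for H2-K1 and 389 ± 168 against 393 ± 35.3 CPM for H2-D1 (SD, n = 4 each). Their log2 fold changes were -0.02 ± 0.25 and -0.01 ± 0.24.

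The nonclassical class I genes of the H2-Q, H2-T and H2-M subregions followed. H2-Q4 ranged from 16.9 to 43.9 CPM in Ager-deleted mice and from 25.2 to 29.9 CPM in controls. H2-Q6 and H2-Q7 had the widest ranges of the list by the ratio of highest to lowest Ager-deleted mouse (4.25 and 3.79), 5.14 to 21.8 CPM and 3.61 to 13.7 CPM, where the controls spanned 10.6 to 13.8 CPM and 6.57 to 8.46 CPM. H2-T23, which encodes Qa-1, a ligand of inhibitory receptors on natural killer cells, ranged from 32.4 to 74.1 CPM against 37.1 to 51.3 CPM. H2-T22 (25.9 to 42.0 against 27.6 to 32.6 CPM), H2-T24 (11.0 to 15.5 against 11.1 to 12.3 CPM) and H2-M3 (8.97 to 13.9 against 10.7 to 11.7 CPM), the last known for presenting formylated peptides, were narrower. All 10 class I chains were highest in E5231, and 9 were lowest in E5248, with H2-T24 lowest in E5568. Reads of these paralogs can be shared: 9.63% of the 50-base words of H2-K1 transcripts, 12.8% of H2-D1, 32.0% of H2-Q6, 26.4% of H2-Q7 and 34.5% of H2-T22 also occur in another gene, so the split among them is uncertain, as it is for H2-DMb1 and H2-DMb2 (22.7% and 24.8%) and for Psme2 (28.3%).

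**Figure D3:**
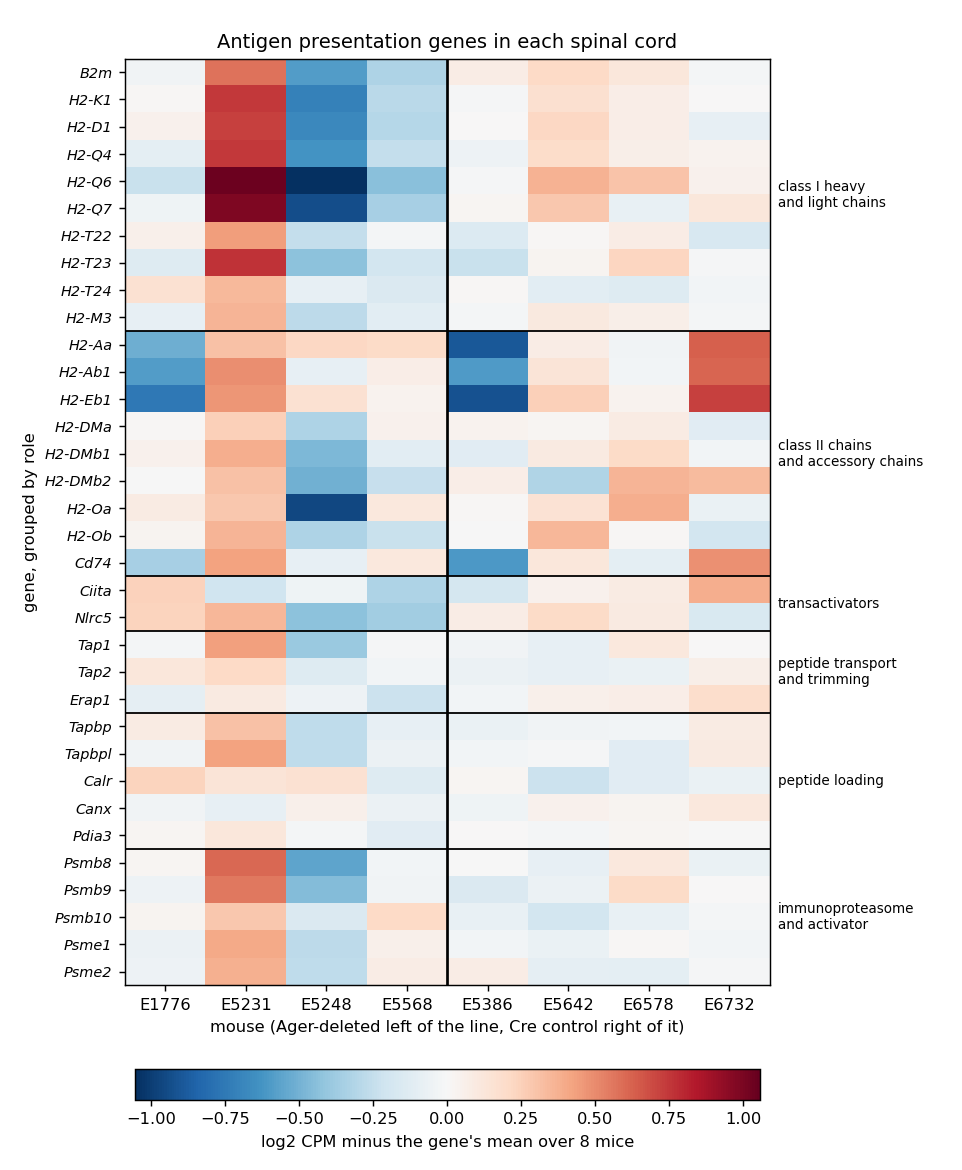
Log2 CPM of each gene minus its mean over the 8 mice, genes in rows grouped by role and mice in columns, with Ager-deleted mice left of the vertical line. Class I chains, H2-DM, TAP and immunoproteasome genes are high in E5231 and low in E5248, whereas H2-Aa, H2-Ab1, H2-Eb1 and Cd74 are low in E1776 and E5386 and high in E5231 and E6732.

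Of the 34 genes, 24 were highest in Ager-deleted mouse E5231, where 17.1% of all tested genes were, and 23 were lowest in Ager-deleted mouse E5248, where 18.1% were. The ratio of the highest to the lowest mouse was larger among Ager-deleted mice than among controls in 29 of the 34, beside 63.3% of all genes, with a median ratio of 1.71 in Ager-deleted mice and 1.19 in controls (1.31 and 1.23 over all genes). This count stayed between 25 and 34 of 34 when each mouse was left out in turn, with 25 (50.5% of all genes) without E5231 and 27 (47.2%) without E5248. These comparisons of spread were chosen after the values were seen. A wider spread in Ager-deleted mice was not particular to the 34 genes. It was also seen in 16 of 16 interferon-stimulated genes, 12 of 12 microglial genes and 8 of 8 tested genes of class II endosomal processing. Genes of border-associated macrophages went the other way, with 0 of 8. The medians turned with single mice. Without E5231 the median log2 fold change of the 34 was -0.16 and that of the genes on chromosome 17 was -0.21, and without E5248 they were 0.11 and 0.13. Without E5231, 5 genes had every Ager-deleted mouse below every control, namely B2m, H2-Q4, H2-Q6, H2-M3 and the aminopeptidase Erap1, where 7.68% of all genes then did not overlap in either direction. The exact test still called 0 of the 34 with either mouse left out.

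Peptide supply mostly followed the class I order. All 5 genes of the immunoproteasome and its activator were highest in E5231, and 4 were lowest in E5248, with Psmb10 lowest in control E5642. Psmb8 (chr17:34197721-34201454), a catalytic subunit that replaces Psmb5 in the immunoproteasome, was at 19.2, 28.8, 12.8 and 18.5 CPM after Ager deletion, against 18.8, 17.8, 20.4 and 18.0 CPM in controls. Its control values lay within the Ager-deleted range, and the log2 fold change was 0.08 ± 0.19. All 5 genes of the immunoproteasome and its activator had positive fold changes and none was called: Psmb9 (0.04), Psmb10 (0.19), and the activator subunits Psme1 (0.08) and Psme2 (0.08). Psmb10 ranged from 26.7 to 36.2 CPM in Ager-deleted mice and from 26.0 to 29.3 CPM in controls, with an unadjusted p of 0.0929 and an adjusted p of 1.00 (exact test). Psmb9 ranged from 5.36 to 10.8 against 6.62 to 8.45 CPM, Psme1 from 37.5 to 60.0 against 43.4 to 45.9 CPM, and Psme2 from 26.5 to 41.4 against 29.7 to 33.6 CPM. On the TPM scale, Psmb8 made up 10.4 ± 2.43% of Psmb8 plus Psmb5 in Ager-deleted mice and 10.5 ± 0.456% in controls, Psmb9 3.62 ± 0.754% and 3.68 ± 0.214% of Psmb9 plus Psmb6, and Psmb10 46.3 ± 1.97% and 43.1 ± 2.13% of Psmb10 plus Psmb7 (SD, n = 4 each). The shares of Psmb8 and Psmb9 were highest in E5231 (13.7% and 4.65%) and lowest in E5248 (8.08% and 2.91%).

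Tap1 (chr17:34187553-34197225), a subunit of the peptide transporter, was at 19.0, 26.0, 14.7 and 19.1 CPM after Ager deletion, against 18.8, 18.1, 20.8 and 19.4 CPM in controls. The order was again E5231 at the top and E5248 at the bottom, with a log2 fold change of 0.03 ± 0.15. Its partner Tap2 ranged from 21.8 to 27.6 CPM against 22.5 to 24.9 CPM. Erap1, which trims peptides in the endoplasmic reticulum, ranged from 29.4 to 36.8 CPM in Ager-deleted mice and from 33.7 to 39.1 CPM in controls. Its log2 fold change was -0.14 (95% interval -0.31 to 0.04). Erap1 did not share the class I order, and was highest in control E6732 and lowest in Ager-deleted mouse E5568. Tap1 and Psmb9 overlap on opposite strands, and Erap1 overlaps Cast in the same way; the kit marked strand, but the strand setting of the counting is not given in the sources used here.

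In peptide loading, the tapasin gene Tapbp ranged from 59.2 to 88.5 CPM in Ager-deleted mice and from 67.9 to 75.6 CPM in controls, and its relative Tapbpl from 10.7 to 17.2 against 11.8 to 13.6 CPM. Both were highest in E5231 and lowest in E5248. The general chaperones did not share this order. Calr (chr8:84841850-84846934), which encodes calreticulin, was at 414, 386, 394 and 320 CPM after Ager deletion, against 357, 300, 323 and 334 CPM in controls. All Ager-deleted mice but E5568 lay above all controls. The log2 fold change was 0.20 ± 0.09 (95% interval 0.00 to 0.41), with an unadjusted p of 0.0568 (exact test) or 0.0466 (quasi-likelihood test) and adjusted p-values of 1.00 and 0.742; an exact permutation test of the mice gave p = 0.114. Canx, the calnexin gene, ranged from 410 to 451 against 420 to 468 CPM, and Pdia3, a thiol oxidoreductase of the loading complex, from 253 to 298 against 271 to 279 CPM.

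The class II chains did not follow the class I order. H2-Aa (chr17:34282744-34287823), the alpha chain of I-A, was at 10.7, 19.0, 17.8 and 17.6 CPM after Ager deletion, against 8.26, 16.2, 15.0 and 23.8 CPM in controls. H2-Ab1 (chr17:34257689-34269419), the beta chain of I-A, was at 7.90, 16.7, 11.2 and 12.5 CPM after Ager deletion, against 7.85, 13.1, 11.7 and 18.3 CPM in controls. H2-Eb1 (chr17:34305867-34316674), a beta chain of I-E, was at 5.51, 12.9, 10.4 and 9.59 CPM after Ager deletion, against 4.92, 11.1, 9.59 and 15.3 CPM in controls. In all 3, control E6732 was the highest mouse and control E5386 the lowest, and Ager-deleted mouse E1776 was next lowest. Cd74, the invariant chain on chromosome 18, had the same order at its ends, with 37.5, 64.2, 45.1 and 51.5 CPM in Ager-deleted mice and 31.4, 51.9, 44.6 and 66.5 CPM in controls. For these 4 genes the ratio of highest to lowest mouse was larger among controls (median 2.60) than among Ager-deleted mice (median 1.94), the reverse of the class I chains (1.19 and 2.45). Their log2 fold changes were 0.04 ± 0.28 for H2-Aa, -0.07 ± 0.26 for H2-Ab1, -0.09 ± 0.32 for H2-Eb1 and 0.03 ± 0.22 for Cd74. Without controls E5386 and E5642, which carry the muscle transcripts, the log2 fold changes were -0.26 for H2-Aa and -0.32 for H2-Ab1. They were -0.39 for H2-Eb1 and -0.17 for Cd74, and none was called. Without E5386 alone, the lowest mouse for these 4 genes, they were -0.18, -0.26, -0.33 and -0.14 in the same order. Without E5642 alone they were 0.046, -0.070, -0.062 and 0.051. The part of muscle RNA in these shifts was not tested. Without control E6732, which carries the liver transcripts, H2-Ab1 and H2-Eb1 turned from negative to 0.15 and 0.17.

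H2-DMa and H2-DMb1, which form the peptide exchange factor H2-DM, ranged from 14.4 to 21.6 CPM and from 4.94 to 8.95 CPM in Ager-deleted mice, with controls between 16.7 and 19.2 CPM and between 6.32 and 7.90 CPM. H2-DMb2, another beta chain, ranged from 0.734 to 1.29 against 0.834 to 1.33 CPM at 26 to 54 counts a mouse. H2-Oa and H2-Ob, which form the H2-DM inhibitor H2-O, ranged from 1.13 to 2.67 against 2.09 to 2.86 CPM and from 3.50 to 5.61 against 3.82 to 5.59 CPM. All 5 were lowest in E5248, and H2-DMa, H2-DMb1 and H2-Ob were highest in E5231, while H2-DMb2 and H2-Oa were highest in control E6578. Their median log2 fold change was -0.07, with 1 of 5 above 0.

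Of the transactivators, Ciita was at 2.69, 1.97, 2.20 and 1.81 CPM after Ager deletion, against 2.00, 2.35, 2.41 and 2.97 CPM in controls, from 70 to 122 counts a mouse. Its values were only partly in the order of the class II chains. Control E6732 was the highest mouse for Ciita as for H2-Aa, but E1776 had the next highest Ciita and next lowest H2-Aa. Control E5386, the lowest for H2-Aa, was above E5231 and E5568 for Ciita. Nlrc5 was at 21.4, 23.2, 13.5 and 14.1 CPM after Ager deletion, against 19.2, 20.9, 19.4 and 16.3 CPM in controls. As with the class I chains it was highest in E5231 and lowest in E5248. The log2 fold changes were -0.17 ± 0.18 for Ciita and -0.07 ± 0.17 for Nlrc5.

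For the marker lists, sums cover every listed gene, and means of log2(CPM + 1) cover only the tested genes. Summed interferon-stimulated genes (16 of 16 tested) were at 713 CPM in E5231 and 274 CPM in E5248, with the controls between 358 and 460 CPM. All 16 were highest in E5231. Summed microglial genes (12 of 12 tested) were at 2962 CPM in E5231 and 1664 CPM in E5248, with the controls between 2153 and 2481 CPM. Genes of border-associated macrophages (8 of 8 tested) summed to 47.4 CPM in E5386 and 63.1 CPM in E1776 and to between 73.8 and 105 CPM in the other 6 mice. B cell genes (7 of 8 tested) summed to 32.3 CPM in E1776, the lowest, and to 52.0 CPM in E6578, the highest, with E5231 at 45.1 CPM and E6732 at 40.9 CPM. By the mean of log2(CPM + 1), which weights the 7 tested genes equally, E1776 was again lowest at 1.15, and E5231 and E6732 were highest at 1.90 and 1.83. T cell genes (7 of 13 tested) summed to 5.51 to 11.6 CPM in Ager-deleted mice and 6.04 to 9.09 CPM in controls. No gene of these lists was at 0 in all 8 mice, and the part of any of these cells in the levels of the 34 genes was not tested.

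In all, 9 relations across the 8 mice were computed among H2-K1, Cd74 and the mean log2(CPM + 1) of these lists. They were not among the planned comparisons, so their p-values describe these mice and do not test a question set beforehand. H2-K1 and interferon-stimulated genes passed the adjustment by Pearson's r and not by rank (Pearson's r = 0.95, exact permutation p = 0.00166, adjusted over 9 relations 0.0147; Spearman's rho = 0.86, exact permutation p = 0.0107, adjusted 0.0964). The same held for H2-K1 and microglial genes, with r = 0.92 (exact permutation p = 0.00327, adjusted 0.0147; rho = 0.69, p = 0.0694, adjusted 0.208). Without E5231 and E5248, the 2 mice farthest from the median of either list, r was 0.70 (exact permutation p = 0.101, n = 6) and 0.67 (p = 0.158), still positive but not past the test with 6 mice. Cd74 had r = 0.78 with B cell genes (exact permutation p = 0.0242, adjusted 0.0726; rho = 0.81, p = 0.0218, adjusted 0.0980) and r = 0.75 with border-associated macrophage genes (exact permutation p = 0.0323, adjusted 0.0727; rho = 0.55, p = 0.171, adjusted 0.308), and neither passed the adjustment. The latter was -0.14 without E1776 and E5386, the pair lowest in that list, and so rests on them. For Cd74, r was 0.38 with interferon-stimulated genes and -0.02 with microglial genes (exact permutation p = 0.351 and 0.965, adjusted 0.519 and 0.965). For H2-K1, r was 0.05 with border-associated macrophage genes and 0.65 with B cell genes (exact permutation p = 0.905 and 0.0663, adjusted 0.965 and 0.119). Between H2-K1 and Cd74 themselves r was 0.35 (exact permutation p = 0.404, adjusted 0.519). With the 2 mice farthest from the median of the list left out in the same way (n = 6), r for Cd74 was 0.66 with B cell genes, -0.04 with interferon-stimulated genes and -0.72 with microglial genes. For H2-K1 it was 0.13 with border-associated macrophage genes and 0.74 with B cell genes, and between H2-K1 and Cd74 it was 0.56 without E5386 and E6732. None of these passed the exact permutation test (p = 0.0806 to 0.951). With 4 mice in a genotype, no relation within a genotype was computed.

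**Figure D4:**
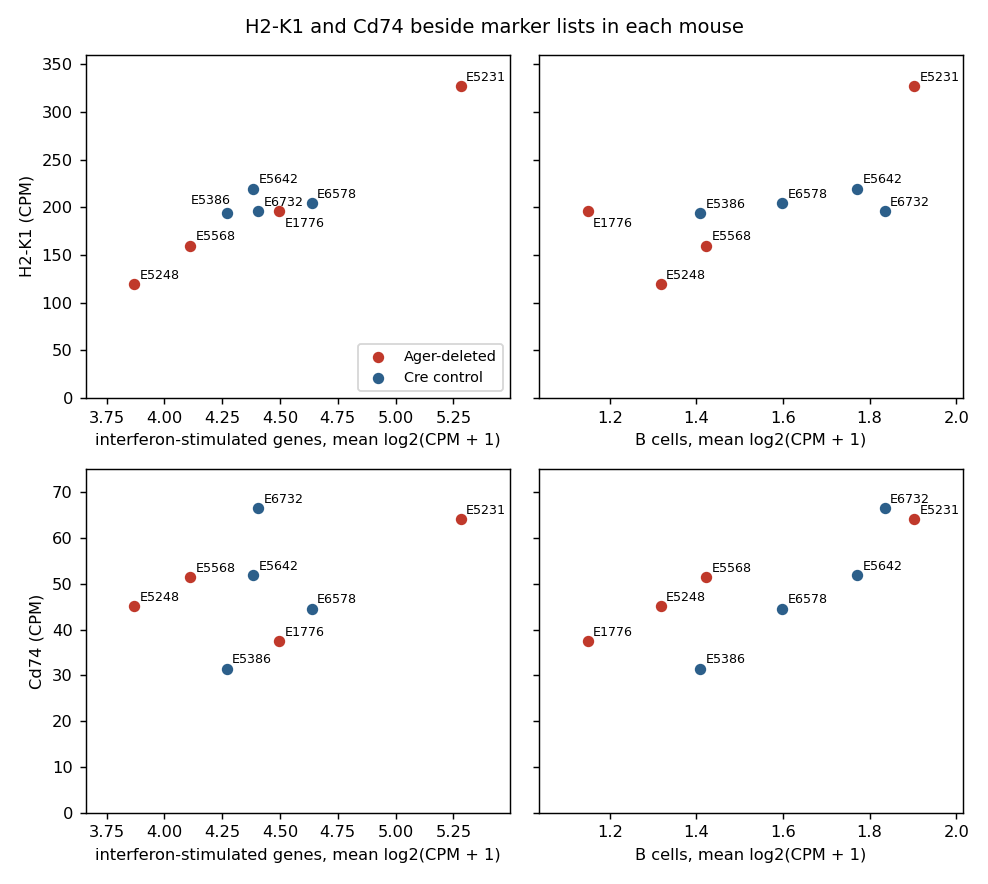
H2-K1 (upper row) and Cd74 (lower row) in CPM against the mean log2(CPM + 1) of interferon-stimulated genes (left) and B cell genes (right), 1 point per mouse, Ager-deleted in red and Cre-expressing controls in blue. H2-K1 runs from 119 CPM in E5248 to 327 CPM in E5231 along the interferon axis, and Cd74 from 31.4 CPM in E5386 to 66.5 CPM in E6732 is spread without that order.

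The genes on chromosome 17 were set against those elsewhere because the floxed allele lies among them. Between Tapbp at its one end and H2-M3 at the other, the 22 genes span 3.36 Mb around Ager, and 18 lie within 1 Mb of it. The nearest were H2-Eb1, H2-Aa and H2-Ab1 at 0.281, 0.310 and 0.328 Mb on the side of lower coordinates, and H2-D1 at 0.662 Mb on the other side. Of the 22, 10 were higher and 12 lower in Ager-deleted mice, with a median log2 fold change of -0.0094. Of the 12 elsewhere, 7 were higher and 5 lower, with a median of 0.0144. For the 18 within 1 Mb the median was -0.0173, and none of the 18 had a fold change beyond 0.3 on the log2 scale in either direction. Neither the 22 nor the 12 held a called gene or one whose genotypes did not overlap. The 120 other tested genes in the same stretch had a median of 0.0353, with 0 called by the exact test (3 at an unadjusted p under 0.05, namely Ager, Egfl8 and H2-Q10) and 0 by the quasi-likelihood test.

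**Figure D5:**
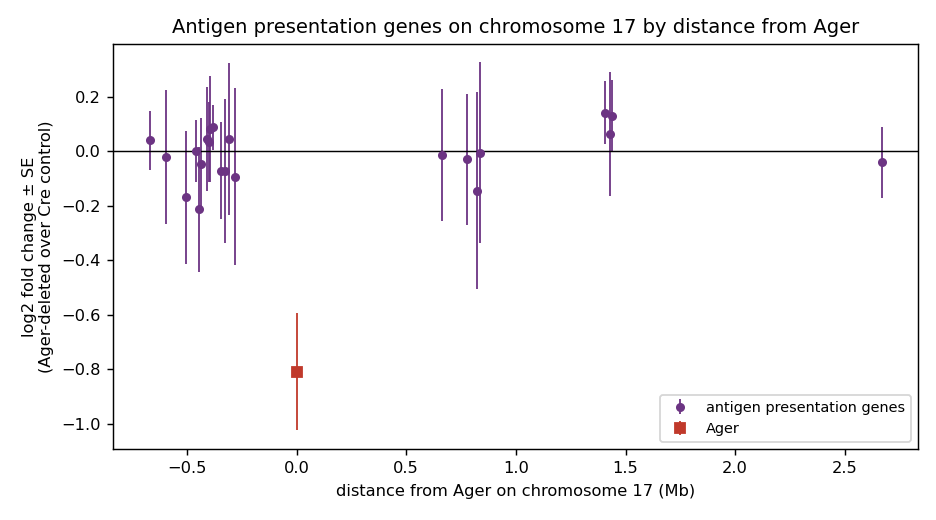
Log2 fold change, Ager-deleted over Cre-expressing control, with its SE, against distance from Ager in Mb, for the 22 genes on chromosome 17 (circles) and Ager (square). Ager is at -0.81, and all 22 genes lie between -0.21 and 0.14 at every distance.

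Farther along chromosome 17, 28.1 Mb from Ager, the pseudogene Tmem181b-ps separated the genotypes completely. It was chosen here after its values were seen, lay at 33.9 to 36.5 CPM in Ager-deleted mice and 13.3 to 15.4 CPM in controls, and was the one gene called by the quasi-likelihood test (adjusted p = 4.05e-05). Within the MHC, H2-Ea, whose promoter is known to be deleted in the H2b haplotype of C57BL/6 mice, had 0 counts in each of the 8 mice, which allows up to 0.0744 to 0.0963 CPM. Linked sequence that came with the floxed allele and the loss of Ager cannot be told apart for the genes on chromosome 17.

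Of 65 other symbols listed for the pathway, some of them alternative names of the same gene, 49 were tested. By either test 0 were called, and 2 (exact test) and 3 (quasi-likelihood test) had an unadjusted p under 0.05. In Ager-deleted mice 24 were higher and 25 lower. H2-Q10, a secreted class I chain known from liver, was at 8.32 CPM in control E6732 and at 0.339 to 1.59 CPM in the other 7 mice (unadjusted p = 0.00735, adjusted p = 0.662, exact test). The further class I-like genes, H2-Q1 and Azgp1, were under the filter and had 114 and 318 counts in E6732, the mouse with high Alb. Rfxap, a subunit of the RFX complex that binds class II promoters, was at 23.8 to 28.9 CPM in Ager-deleted mice and 21.4 to 23.7 CPM in controls, ranges that do not overlap (log2 fold change 0.19, adjusted p = 1.00 in the exact test). It was the only non-overlapping gene of the 49, where 3.87% of all tested genes did not overlap. Psme4, a proteasome activator, was at 65.6 to 78.6 CPM against 78.5 to 88.9 CPM (log2 fold change -0.24, unadjusted p = 0.00923, adjusted p = 0.724, exact test). In endosomal processing 3 of 8 tested genes were higher and 5 lower, in interferon-gamma signalling 5 and 5 of 10, and all 5 tested costimulatory genes were lower, with a median of -0.22 and none called.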

How the data were processed

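RNA-seq of lumbar spinal cord from 8 mice was analysed, with groups taken from the genotypes that the labels give. The authors filtered reads with Trimmomatic 0.36, aligned them to mm10 with STAR 2.7.3a, and deposited raw counts per gene from featureCounts (Subread 1.6.3) on GENCODE M25. They also deposited log2 values, which are TMM-normalized log2 CPM from edgeR; these were used only to check the filter and normalization, and recomputation for 19470 genes differed by at most 4.78e-06. No replicates were pooled. The labels give no litter, batch or sequencing date.

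Counts were filtered with filterByExpr (minimum 10 counts), TMM-normalized and tested in edgeR 4.0.16 (R 4.3.3) with the exact test as the main test, which the study's methods name, and the quasi-likelihood test beside it; the Benjamini-Hochberg adjustment ran over all tested genes, with a threshold of 0.05. Both tests were also run on simulated counts with known changes, and the outcome is not given here. The quasi-likelihood fit gave SEs and 95% intervals. CPM values are TMM-normalized; permutation tests are exact and two-sided over the 70 ways to split 8 mice, on log2(CPM + 1). TPM is from union exon lengths of GENCODE M21 (GRCm38), matched by symbol for all 34 genes. It serves only to order levels and to form ratios and shares between genes within a mouse.

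The 34 genes and the other lists, written by hand from general knowledge, were chosen with earlier results of these data known. All 34 are named; values in every mouse are given for 12 genes that lead the roles, and would have been for any with an unadjusted p under 0.05 in the exact test, with genotypes that do not overlap, or within 1 Mb of Ager with a log2 fold change beyond 0.3. Other pathway genes are named by the first pair of these criteria, and any other gene was chosen after its values were seen. Alternatives were the quasi-likelihood test, DESeq2 1.42.0, common and tagwise dispersions, RLE size factors, library size only, no filter, removal of controls E5386 and E5642, and each mouse left out in turn. Leaving out mice from the comparison of ranges was added after the data were examined. The relations among H2-K1, Cd74 and the marker lists were also not among the planned comparisons. Intervals and floors cover counting error only where they rest on 3 counts. Immunohistochemistry, behavior, cell culture and human data were not analysed here.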

Additional observations from a re-analysis of the deposited data

Results flagged for a closer look

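In 3 groups of 4 mice, of 76 examined over the 34 genes, the other named pathway genes and Ager, 1 mouse lay far from the other 3 by Dixon's test; chance alone flags about 1 in 20 groups. H2-Aa was at 10.7 CPM in Ager-deleted mouse E1776, with the other 3 between 17.6 and 19.0 CPM. Tap2 was at 24.9 CPM in control E6732, with the other 3 controls between 22.5 and 22.9 CPM. H2-Q10 was at 8.32 CPM in control E6732, with the other 3 controls between 0.455 and 1.59 CPM. E6732 is the mouse whose Alb level was 452 CPM, and the part of liver RNA in its H2-Q10 level was not tested.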

How the results depend on the processing

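Under all 15 alternatives 0 of the 34 genes were called, and the smallest adjusted p of any was 0.341, for H2-Q6 without E5231. The count called over all genes was 14, and 1 with the quasi-likelihood test, 25 with DESeq2, 78 with common and tagwise dispersions, 67 without controls E5386 and E5642, and 3 to 98 with each mouse left out (3 without E5231, 98 without E6578). The count of the 34 whose genotypes did not overlap was 0, and 1 (H2-DMb2) without controls E5386 and E5642, where 12.9% of all tested genes did not overlap, and 0 to 5 with each mouse left out, where 5.06% to 11.1% did not (5 without E5231, beside 7.68% of all genes). The median log2 fold change moved by less than the spread between mice under every alternative. Of 510 refitted fold changes, 436 kept their direction and 74, in 26 genes, changed sign around 0; the cause was not tested. With each mouse left out, the log2 fold changes of those genes ran from -0.40 to 0.021 for B2m, from -0.36 to 0.16 for H2-K1, from -0.34 to 0.16 for H2-D1, from -0.38 to 0.14 for H2-Q4, from -0.72 to 0.091 for H2-Q6, from -0.49 to 0.22 for H2-Q7, from -0.013 to 0.23 for H2-T22, from -0.26 to 0.20 for H2-T23, from -0.19 to 0.038 for H2-M3, from -0.18 to 0.31 for H2-Aa, from -0.27 to 0.15 for H2-Ab1, from -0.33 to 0.17 for H2-Eb1, from -0.087 to 0.099 for H2-DMa, from -0.20 to 0.080 for H2-DMb1, from -0.29 to 0.041 for H2-Oa, from -0.22 to 0.035 for H2-Ob, from -0.14 to 0.22 for Cd74, from -0.21 to 0.045 for Nlrc5, from -0.13 to 0.15 for Tap1, from -0.068 to 0.13 for Tapbp, from -0.10 to 0.14 for Tapbpl, from -0.038 to 0.040 for Pdia3, from -0.15 to 0.24 for Psmb8, from -0.17 to 0.18 for Psmb9, from -0.061 to 0.17 for Psme1, and from -0.043 to 0.17 for Psme2. Signs also changed without controls E5386 and E5642, to 0.043 for H2-D1, 0.058 for H2-Q7, -0.045 for H2-T23, -0.26 for H2-Aa, 0.066 for H2-Ob, -0.17 for Cd74, 0.0098 for Nlrc5, -0.032 for Tap1, -0.0073 for Tapbp, -0.014 for Pdia3, -0.065 for Psmb9. They changed with library size only, to 0.0066 for H2-K1, 0.015 for H2-D1, 0.023 for H2-Q7. They changed with no filter, to 1.01e-05 for H2-Q7. They changed in DESeq2, to -0.0018 for H2-DMa, -0.0030 for Pdia3. They changed with RLE size factors, to -0.0020 for H2-DMa, -0.0030 for Pdia3. H2-Q6 had the widest interval of the 34 genes at 182 to 809 counts a mouse. With 4 mice a genotype, differences inside the intervals given in the report are not excluded. No paired analysis was possible because the columns carry mouse identifiers and no replicate numbers shared between genotypes.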
